A study of Mus musculus with 15 samples.

Results

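Microglia were studied for 10 genes of the inflammatory cytokine and NF-kB circuit. These were the cytokines Il1a, Il1b and Tnf, the interleukin-1 receptor antagonist gene Il1rn and the NF-kB subunit genes Nfkb1 and Relb. The others were the feedback genes Nfkbia, Nfkbiz and Tnfaip3 and the inducible cyclooxygenase gene Ptgs2. The 10 genes were taken by symbol from a matrix of 32372 genes, all 10 were found there, and all 10 were among the 14260 genes that passed the filter on low counts. They were followed as sums of unique molecular identifiers (UMIs) per mouse and by their detection in single cells, in 102043 cells.

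The cells were taken from cortex with hippocampus, in 15 male hTfR KI mice on C57BL/6J aged 3.5 months, whose transferrin receptor gene carries a human sequence that the antibody transport vehicle (ATV) binds. Every mouse was given 1 dose of 10 mg/kg, either of ATV:4D9, an antibody against the microglial receptor TREM2 on that vehicle, or of the control ATV:RSV. ATV:RSV mice were sampled at day 1 and ATV:4D9 mice at day 1, 7, 14 or 28, which made 5 groups of 3 mice, and each of 3 batches held 1 mouse per group. Each later day was therefore set against the same 3 ATV:RSV mice of day 1, so that the effect of the antibody at days 7, 14 and 28 cannot be told apart from that of the day of sampling. The brains had been perfused and the cells enriched with CD45 beads, which bind leukocytes of every kind. At least 4 of 5 core microglia genes were detected in 101753 cells.

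NF-kB is a family of paired transcription factors held inactive in the cytoplasm by inhibitor (IkB) proteins. Signals from interleukin-1, tumour necrosis factor and Toll-like receptors activate the IKK kinases, which mark the inhibitor for destruction and free the factor to enter the nucleus. Among the genes it then switches on are the cytokines themselves and its own inhibitors, which close a negative feedback loop. In the brain, microglia are a main source of these cytokines, and the same genes are also known to be induced when microglia are dissociated from tissue.

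The promoter sequence just upstream of the start is shown for 4 genes that stand for different courses over the days, taken from RefSeq on GRCm38.p6 (the assembly behind mm10), where 7 of the 10 genes had an entry. All lie on the minus strand and read 5′ to 3′ toward the start site, the last base being the one before it. Capitals mark the TATA box, searched as TATAAA, the AP-1 site, searched as TGANTCA, and the kappaB consensus, the site that NF-kB binds. The first is Nfkbia at chr12:55492648-55492797, with the kappaB consensus in capitals. The second is Tnf at chr17:35202008-35202157 and the third Il1b at chr2:129371140-129371289, each with the TATA box in capitals. The last is Il1a at chr2:129309973-129310122, with the TATA box followed by the AP-1 site.
Nfkbia: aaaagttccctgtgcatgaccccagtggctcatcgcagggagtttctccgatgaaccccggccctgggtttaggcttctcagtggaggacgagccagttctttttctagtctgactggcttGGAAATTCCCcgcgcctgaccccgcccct
Tnf: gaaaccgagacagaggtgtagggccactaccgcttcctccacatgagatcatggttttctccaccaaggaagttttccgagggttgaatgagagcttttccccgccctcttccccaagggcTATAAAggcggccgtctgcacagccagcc
Il1b: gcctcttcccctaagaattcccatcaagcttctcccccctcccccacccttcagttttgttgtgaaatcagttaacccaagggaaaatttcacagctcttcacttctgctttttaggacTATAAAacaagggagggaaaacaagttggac
Il1a: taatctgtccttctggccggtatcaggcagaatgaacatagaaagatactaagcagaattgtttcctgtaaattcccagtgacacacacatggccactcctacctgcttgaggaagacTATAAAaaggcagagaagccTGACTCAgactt

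The TATA box began 29 bases before the start in Tnf, 31 in Il1b and 32 in Il1a, and the kappaB consensus began 29 bases before the start in Nfkbia. Each motif was searched separately in the 250 bases upstream, on both strands. TATAAA was present in 12.4% of all 32851 promoters of the table, TGANTCA in 6.75% and the kappaB consensus in 3.90%. The 7 genes with an entry have 10 promoters there, so some had more than 1 chance of a match. Of the 7 genes, 4 held TATAAA, 3 held TGANTCA and 2 held the kappaB consensus, Nfkbia and Tnfaip3. In Tnfaip3 an AP-1 site and a kappaB consensus stand 136 and 125 bases before the RefSeq start, in the stretch chr10:19015522-19015550 on the minus strand, with both motifs in capitals, and a further kappaB consensus begins 12 bases before that start.
Tnfaip3: caggTGACTCAcgcgGGGACACCCCgggg

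GENCODE M21 draws the start of Tnfaip3 further upstream, at chr10:19015657, so that this stretch lies inside its version of the gene. A match of letters is a description and not evidence that a factor binds there.

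Depth moved with the groups. The libraries held 32341960 to 70307384 UMIs per mouse from 5667 to 7596 cells, and the median cell had 8201.5 to 8995.5 UMIs at day 1 of ATV:4D9, 4975 to 5750 in ATV:RSV and 4694 to 6117 at the later days. Of 100747 distinct cell barcodes, 1283 (1.27%) occurred in more than 1 library. A profile of another cell type (UMIs of at least 3 of its markers) was seen in 832 cells (0.815%), and cells with a border macrophage profile numbered 63 to 82 per mouse at day 1 against 16 to 34 in the other mice. Profiles were scored on all UMIs of a cell, so these counts can also rise with depth, and that part was not tested. The summed level of 8 border macrophage genes was 20.2 to 30.4 CPM (UMIs of a gene scaled to a common library size) at day 1 and 16.5 to 20.02 in ATV:RSV, that of 5 monocyte genes 15.8 to 19.9 and 4.25 to 10.9, and that of 7 neutrophil genes 113 to 114 and 185 to 198, with UMIs for every gene of these lists. Single genes carried much of the difference in each of these sums. Among the border macrophage genes Pf4 was higher at day 1 (9.11, 11.1 and 13.4 CPM against 6.79, 5.55 and 4.15). Ms4a7 and Cbr2 were also higher there without overlap. Mrc1 (4.96, 7.06 and 7.70 CPM against 7.83, 6.75 and 9.38) and the rest of that list overlapped between the groups. Among the monocyte genes Plac8 was higher at day 1 (16.6, 13.3 and 13.5 CPM against 2.11, 0.844 and 0.859) and Ccr2 lower (2.22, 2.07 and 1.45 against 7.97, 3.09 and 3.87), and at most 1 cell per mouse had a monocyte profile. Of the neutrophil sum, Csf3r made up 104 to 111.8 CPM at day 1 and 181 to 188 in ATV:RSV, while S100a8 and S100a9 overlapped between the groups. Sums of oligodendrocyte (32.4 to 36.7 CPM against 45.9 to 62.0), neuron (4.95 to 6.72 against 8.11 to 10.7) and endothelial genes (9.98 to 15.6 against 18.6 to 25.0) were lower at day 1. That of T or NK cell genes was higher (0.471 to 0.866 against 0.0482 to 0.327). Their part in the results at day 1 was not tested beyond leaving out the cells with such profiles, which kept 9 of the 10 genes called there.

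The first question was how the 10 genes moved over the days after a dose. UMIs were summed per mouse, expressed as CPM, and tested with limma-voom, and a p adjusted over all 14260 genes (Benjamini-Hochberg) under 0.05 was the threshold for a call. In bulk sums of this kind, fewer cells expressing a gene and less RNA per cell cannot be told apart, so shares of cells follow further on. In 1 test over the 5 groups, 9 of the 10 genes were called, all except Nfkb1, beside 66.5% of all genes tested.

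The cytokines followed different courses. Tnf was high at day 1 and no longer called at day 7, when its values overlapped those of ATV:RSV, whereas Il1b was still raised at day 7, and Il1a lay between them. Il1rn rose at day 1. The feedback and subunit genes moved by less than 1 on the log2 scale, and Nfkb1 was not called against ATV:RSV at any day.

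Tnf encodes tumour necrosis factor, the founding cytokine of its family. In ATV:RSV its level was 137, 174 and 109 CPM in replicates 1, 2 and 3. At day 1 of ATV:4D9 it was 1333, 1529 and 1670 CPM. The lowest day 1 mouse thus lay far above the highest control, with a log2 fold change of 3.45 (SE 0.245, 10.9-fold, limma-voom adjusted p = 4.15e-09). At day 7 the level was 104, 223 and 143 CPM, at day 14 it was 111, 95.2 and 185 CPM, and at day 28 it was 147, 125 and 154 CPM. These ranges overlapped that of ATV:RSV at each of the 3 later days, and the log2 fold change at day 7 was 0.12 (SE 0.253, limma-voom adjusted p = 0.871).

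Il1b encodes interleukin-1 beta, which is made as an inactive precursor and cut by caspase-1 in the inflammasome before release. Its level in ATV:RSV was 119, 85.9 and 66.0 CPM. At day 1 it was 271, 341 and 425 CPM and at day 7 it was 244, 396 and 313 CPM. Both groups lay wholly above the controls and overlapped each other. Il1b was higher by 1.95 on the log2 scale at day 1 (SE 0.291, 3.87-fold, limma-voom adjusted p = 2.01e-05) and by 1.82 at day 7 (SE 0.293, 3.54-fold, adjusted p = 0.00128). At day 14 the mice had 110, 141 and 191 CPM and at day 28 they had 213, 92.2 and 116 CPM, levels that overlapped the controls and were not called (0.71 and 0.58). Within the batches the difference between day 7 and ATV:RSV was 1.03, 2.21 and 2.24 on the log2 scale, so that replicate 1 moved least.

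Il1a encodes interleukin-1 alpha, which is active without cleavage and acts as an alarm signal when cells are damaged. The controls had 394, 339 and 263 CPM. Day 1 mice had 745, 926 and 1015 CPM and day 7 mice 460, 724 and 601 CPM, both above every control, and the day 1 group lay above the day 7 group without overlap. Il1a was called at day 1 (1.44, SE 0.192, 2.71-fold, limma-voom adjusted p = 6.06e-06) and at day 7 (0.84, SE 0.193, 1.78-fold, adjusted p = 0.0214). The batch differences at day 7 were 0.22, 1.10 and 1.19 on the log2 scale, and the day 7 call was lost in 4 of 25 alternative fits. Day 14 mice had 390, 482 and 525 CPM and day 28 mice had 554, 349 and 408 CPM, which overlapped the controls and were not called.

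Il1rn encodes the secreted antagonist that occupies the interleukin-1 receptor without signalling. It was scarce, with 13, 7 and 2 UMIs in the ATV:RSV mice (0.266, 0.169 and 0.0477 CPM). Day 1 mice held 444, 440 and 397 UMIs (6.98, 7.19 and 8.49 CPM), a log2 difference of 5.67 (SE 0.661, limma-voom adjusted p = 1.38e-06) that separated the groups. The later mice held 4 to 73 UMIs. The highest of them was replicate 1 of day 14 with 73 UMIs, of which 20.5% fell in cells with a border macrophage profile, while the other mice of that day held 4 and 15 UMIs. At day 1, cells with a profile of any other type held 2.05% to 5.18% of the Il1rn UMIs.

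**Figure D1:**
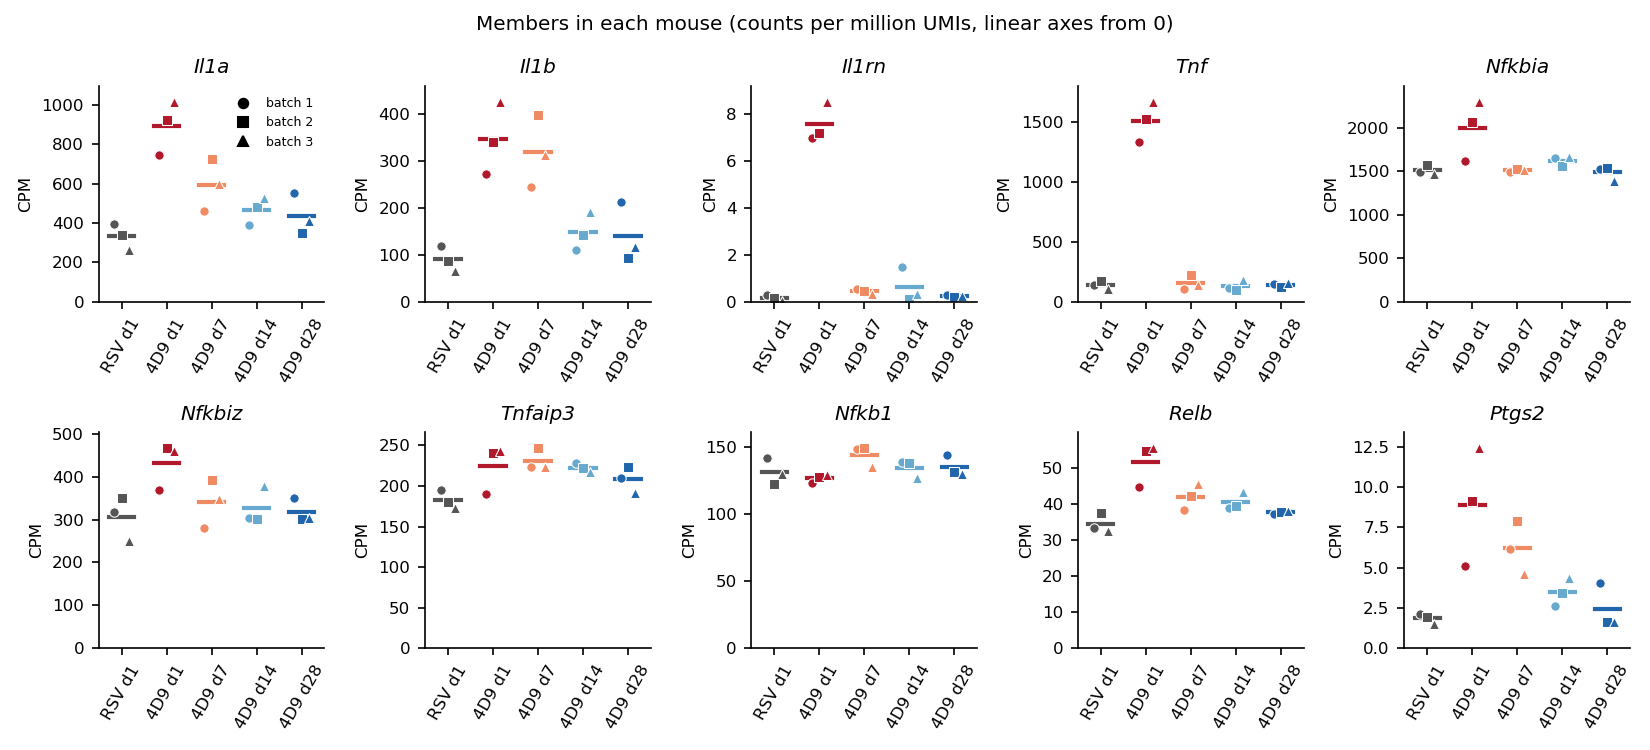
Level of each of the 10 genes in CPM (vertical axes start at 0, 1 panel per gene with its own scale) in each of the 15 mice, by group on the horizontal axis; points are mice, with a symbol per batch, and the bar is the group mean of 3. Tnf stands alone at day 1 (1333 to 1670 CPM), Il1b stays up at day 7 (244 to 396 CPM against 66.0 to 119 in ATV:RSV), and Nfkb1 lies between 123 and 149 CPM in every mouse.

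The subunit genes differed from each other. Nfkb1 encodes the precursor of a DNA-binding subunit that pairs with RelA in the classical pathway, and Relb encodes the partner used in the alternative pathway. Nfkb1 was 142, 123 and 130 CPM in ATV:RSV and 123, 128 and 129 CPM at day 1. These values overlapped and the gene was not called (-0.05, SE 0.0614, limma-voom adjusted p = 0.454). Relb was 33.3, 37.4 and 32.5 CPM in ATV:RSV and 44.7, 54.6 and 55.3 CPM at day 1, without overlap, and was called there (0.58, SE 0.0845, 1.49-fold, adjusted p = 1.62e-05). At day 7 Relb lay at 38.2, 42.3 and 45.6 CPM, again above every control, but with an adjusted p of 0.0805 in limma-voom (0.0218 with the batch as a block).

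At day 1 the feedback genes moved by far less than the cytokines. Nfkbia encodes IkB alpha, the inhibitor that NF-kB rebuilds after each round of activation, and was at 1496, 1567 and 1472 CPM in the controls. At day 1 it was 1620, 2068 and 2297 CPM, above every control (0.38, SE 0.0889, 1.31-fold, limma-voom adjusted p = 0.00117). At the other days it was between 1392 and 1665 CPM, and the difference at day 7 was -0.00 (adjusted p = 0.996). Nfkbiz encodes a nuclear IkB protein needed for a second wave of targets, and rose from 317, 349 and 251 CPM to 368, 466 and 459 CPM at day 1 (0.50, SE 0.138, 1.42-fold, adjusted p = 0.0043). Its later values of 280 to 392 CPM overlapped the controls.

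Tnfaip3 encodes a ubiquitin-editing enzyme that shuts off signalling upstream of the IKK kinases. In ATV:RSV it was 195, 180 and 173 CPM. The day 1 mice, at 191, 241 and 243 CPM, overlapped the controls through replicate 1, whose within-batch difference was -0.03. The gene was called at day 1 (0.29, SE 0.0837, limma-voom adjusted p = 0.0058) and at day 7 (0.34, SE 0.0841, 1.27-fold, adjusted p = 0.0323), where all 3 mice, at 223, 246 and 224 CPM, lay above the controls. The day 7 call was lost in 7 of 25 alternative fits. Day 14 mice had 228, 222 and 218 CPM, likewise above every control, with an adjusted p of 0.322 in limma-voom.

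Ptgs2 encodes the inducible enzyme that starts prostaglandin synthesis. It was low, at 2.11, 1.93 and 1.503 CPM in ATV:RSV. It reached 5.11, 9.12 and 12.4 CPM at day 1 (2.13, SE 0.424, limma-voom adjusted p = 0.000334). At day 7 it was 6.17, 7.93 and 4.62 CPM, above every control and similar in the 3 batches (1.55, 2.03 and 1.61 on the log2 scale). That difference of 1.67 (SE 0.453) missed the threshold in limma-voom (adjusted p = 0.0515) and passed it in 10 of 25 alternatives, such as the batch as a block (0.0366). At day 14 the mice had 2.61, 3.44 and 4.38 CPM, again above the controls, and at day 28 they had 4.06, 1.62 and 1.63 CPM; neither day was called.

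Counted together, 9 of the 10 genes were called at day 1, all 9 higher, where 69.2% of all genes tested were called, 34.7% higher and 34.6% lower. The median log2 fold change of the 10 genes was 1.01, against -0.05 over all genes tested. The groups did not overlap in 8 of the 10, beside 71.5% of all genes. Scaling by library size alone moved the median of all genes to -0.29 and the share of all calls at day 1 that were higher from 50.1% to 34.7%, and left 6 of the 10 genes called higher, beside 25.9% of all genes tested called higher and 74.7% called. Of the feedback genes, Nfkbia (0.14), Nfkbiz (0.26) and Tnfaip3 (0.05) were then no longer called, and Nfkb1 was called lower (-0.29, limma-voom adjusted p = 0.000265). The cytokines, Il1rn, Relb and Ptgs2 kept their calls under library size alone. With either scaling the values are relative to the UMIs of a mouse. These were 38985589 to 46425480 in ATV:RSV, from 6487 to 7020 cells, and 53244126 to 70307384 at day 1, from 5998 to 7343 cells. Whether Nfkb1 and the feedback genes changed per cell was not tested.

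At day 7, 3 of the 10 genes were called, Il1a, Il1b and Tnfaip3, all higher, beside 3.98% of all genes called and 2.99% called higher. With the batch as a block 5 were called, Relb and Ptgs2 being added, where the block also raised the share of all genes called to 7.11%. DESeq2 and thinned cells (described further on) also gave 5, beside 6.11% and 4.13% of all genes. The median of the 10 was 0.32 against -0.00 over all genes, and 6 of the 10 did not overlap with the controls, beside 21.2% of all genes. The count rested on single mice: without ATV:RSV replicate 2 or 3, or without day 7 replicate 2 or 3, only Il1b stayed called. Scaling by library size alone moved the share of all calls at day 7 that were higher from 75.0% to 26.4%. Day 7 replicate 3 stood apart in neutrophil granule genes, with S100a8 at 53.4 CPM, S100a9 at 62.8, Ngp at 16.0 and Camp at 25.0, against at most 5 CPM in any other mouse. The 7 neutrophil genes summed to 230 to 386 CPM at that day, of which Csf3r alone was 225 to 228 CPM in each of the 3 mice. Cells with a neutrophil profile held at most 0.180% of the Il1b UMIs of any day 7 mouse, and without the cells of other types the Il1b difference was 1.82.

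At day 14, 0 of the 10 genes were called in limma-voom, beside 0.4% of all genes, and at day 28 again 0, beside 0% of all genes. Of the members, 3 did not overlap with the controls at day 14 (Tnfaip3, Relb and Ptgs2), beside 10.4% of all genes, and 0 at day 28, beside 8.93%. Within the batches, 3 of the 10 were higher in 3 of 3 at day 14 (14.1% of all genes were) and 6 of the 10 at day 28 (16.2% of all genes), the latter being Il1a, Il1b, Il1rn, Tnfaip3, Nfkb1 and Relb. At an unadjusted p under 0.05 there were 4 of the 10 at day 14, beside 5.4% of all genes, and 1 at day 28, beside 4%, and edgeR and DESeq2 also called 0 of the 10 at both days. The medians were 0.26 and 0.16.

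Set directly against each other, day 7 and day 1 differed in 7 of the 10 genes, beside 66.9% of all genes (33% higher and 33.9% lower at day 7). Of these, 6 were lower at day 7: Tnf (-3.33, SE 0.245), Il1rn (-4.11, SE 0.482), Il1a (-0.60, SE 0.191), Nfkbia (-0.39, SE 0.0890), Nfkbiz (-0.35, SE 0.138) and Relb (-0.29, SE 0.0839). Nfkb1 was higher (0.19, SE 0.0614). Il1b did not pass (-0.13, SE 0.285, limma-voom adjusted p = 0.715), nor did Ptgs2 (-0.46, SE 0.308, adjusted p = 0.204) or Tnfaip3 (0.05, SE 0.0837, adjusted p = 0.631). However, Tnfaip3 passed with library size alone (0.19, limma-voom adjusted p = 0.0468), and Ptgs2 passed in 1 of 25 alternatives. Missing the threshold does not show that the levels of these 3 genes were alike.

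**Figure D2:**
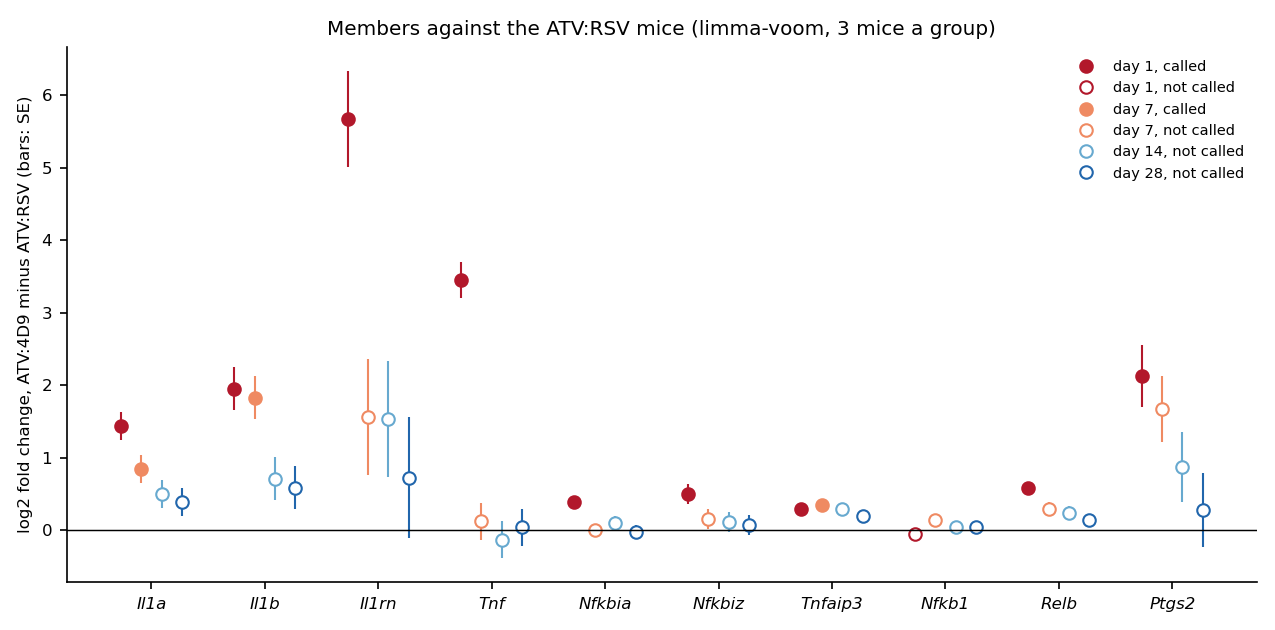
Log2 fold change against ATV:RSV (vertical axis, log2 units) for the 10 genes (horizontal axis) at days 1, 7, 14 and 28 (points are limma-voom estimates over 3 mice against 3, bars are standard errors, filled points were called). At day 1, 9 genes are filled, at day 7 only Il1a, Il1b and Tnfaip3, and at days 14 and 28 none.

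The sums do not say how many cells carried a transcript. Each cell was therefore thinned at random to 3385 UMIs, which left out 10204 shallower cells, and the share of cells with at least 1 UMI was taken per mouse and averaged over 3 mice. These shares were not tested. No cell type that lacks the genes was at hand to measure free RNA, so a low share is not read as expression.

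Tnf was found in 22.7% ± 5.38 (SD, n = 3) of thinned ATV:RSV cells and in 75.2% ± 4.08 at day 1, with no mouse of either group between 28.8% and 70.5%. At days 7, 14 and 28 the share was 23.8%, 21.6% and 21.4%. Among cells with a UMI, the mean number of Tnf UMIs was 1.96 in ATV:RSV and 5.46 at day 1. Both the share and the amount per positive cell were thus higher at day 1. Without thinning the shares were 29.0% and 81.1%.

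Il1b was found in 9.17% ± 1.95 of ATV:RSV cells, 26.5% ± 4.79 at day 1 and 25.2% ± 6.07 at day 7 (each SD, n = 3). The lowest day 1 and day 7 mice, at 21.2% and 21.7%, lay above the highest control at 10.998%. At days 14 and 28 the means were 14.2% and 12.1%. Positive cells held 3.08 Il1b UMIs on average in ATV:RSV, 3.56 at day 1 and 4.11 at day 7. Il1b was thus detected in a minority of thinned cells in all 15 mice.

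The 1% of thinned cells richest in Il1b held 38.6% of its UMIs in ATV:RSV (35.6% to 42.7% in the 3 mice), 17.3% at day 1 and 17.8% at day 7. At days 14 and 28 they held 28.8% and 33.3%. Tnf was less concentrated, with 17.3% of its UMIs in the richest 1% of cells in ATV:RSV and 5.17% at day 1. For Nfkbia this value was between 4.00% and 4.79% in the 5 groups, and its transcripts were spread over most cells (80.9% of ATV:RSV cells had one, and 85.4% at day 1).

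Il1a was found in 48.5% ± 5.73 of ATV:RSV cells, 71.6% ± 4.74 at day 1 and 63.2% ± 7.02 at day 7 (each SD, n = 3). Relb was in 11.3% and 14.3% of cells in ATV:RSV and at day 1, Nfkbiz in 46.2% and 54.6%, and Tnfaip3 in 36.9% and 38.8%. The share with Nfkb1 was lower at day 1, 31.5% against 37.0%, without overlap between the mice (30.7% to 32.2% against 35.4% to 39.1%), while without thinning it was 60.1% against 52.7%. Ptgs2 was in 0.426% of ATV:RSV cells, 1.47% at day 1 and 1.15% at day 7, and Il1rn in 1.29% of day 1 cells and at most 0.141% of the cells of any other mouse.

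The 3 cytokines were then counted in the same cells. None of Il1a, Il1b and Tnf was detected in 41.4% of thinned ATV:RSV cells, 12.2% at day 1, 27.3% at day 7, 34.4% at day 14 and 37.6% at day 28. All 3 were detected in 2.45% of cells in ATV:RSV (1.56% to 2.94% in the 3 mice), 20.9% at day 1 (15.9% to 25.0%) and 6.67% at day 7 (4.74% to 10.4%). At days 14 and 28 the share was 3.92% and 3.48%. The day 1 mice lay above all others, and the day 7 mice above the controls.

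**Figure D3:**
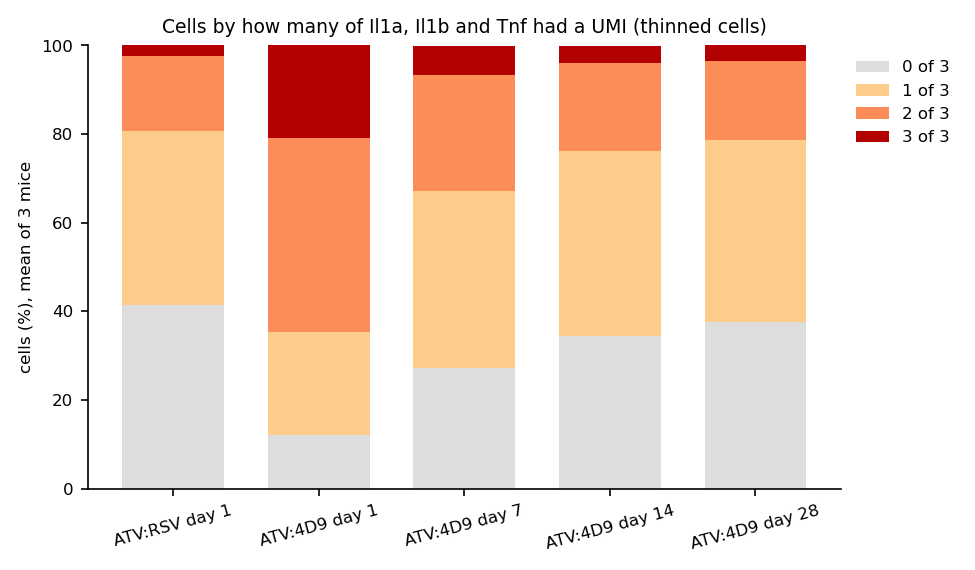
Percent of thinned cells (vertical axis, 0 to 100) with none, 1, 2 or 3 of Il1a, Il1b and Tnf detected, as means of 3 mice in each of the 5 groups. The part with all 3 is 2.45% in ATV:RSV and 20.9% at day 1, and the part with none is 41.4% and 12.2%.

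Detection of one gene in the same cells as another was compared within the deposited clusters, and pairs lay both above and below the expected number. The number of thinned cells with both Il1b and Tnf was a median of 1.21 times that expected from their separate shares within clusters, and was above 1 in 15 of 15 mice. For Il1a with Il1b it was 1.17 (15 of 15 mice), for Il1a with Tnf 1.09 (15 of 15) and for Il1b with Tnfaip3 1.14 (15 of 15). The highest median was that of Il1b with Ptgs2, 1.62, in the 7 mice with enough such cells. Below 1 were Tnf with Nfkb1 at 0.99 (above 1 in 6 of 15 mice), Il1b with Nfkb1 at 0.97 (2 of 15), Nfkb1 with Ptgs2 at 0.90 (3 of 11) and Il1a with Il1rn at 0.84 (0 of 3), among others. These ratios come from the same libraries and cells, carry no test, and also hold differences in state between cells of a cluster.

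The deposited clusters differed in how much of the circuit they carried. Cluster 2 held 5607 to 6597 cells of each day 1 mouse and 74 to 245 of every other mouse, and clusters 0 and 1 together held the rest. The clusters were made from these same cells, so the values below describe them and are not a test. In ATV:RSV, Nfkbia was detected in 96.6% of thinned cells of cluster 0, 52.9% of cluster 1 and 80.8% of cluster 2. Tnf was detected in 31.2%, 5.83% and 50.8%, Il1b in 12.3%, 3.15% and 22.5%, Il1a in 61.3%, 25.1% and 61.1%, and Nfkbiz in 64.4%, 13.1% and 57.5%. Cluster 1 was thus the low one for these 5 genes, whereas Nfkb1 was even across clusters at 35.7%, 39.6% and 35.3%.

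A list of 20 genes that dissociation is known to induce was likewise lowest in cluster 1 and was highest in cluster 0. It had 147 UMIs per thinned ATV:RSV cell in cluster 0, 39.9 in cluster 1 and 107 in cluster 2. The shares of Nfkbia and Nfkbiz were also highest in cluster 0. That of Il1a was nearly even between clusters 0 and 2, and those of Tnf and Il1b were highest in cluster 2. The part of the dissociation list in the shares was not tested. Between groups the dissociation list summed to 29202 to 32114 CPM in ATV:RSV and 24676 to 28938 CPM at day 1. At day 7 it was 30908 to 33431 CPM, which overlapped the controls, and at days 14 and 28 it was 32265 to 34000 and 32593 to 33644 CPM, above every control. At day 1 it was 152 UMIs per thinned cell in cluster 0 (144 to 158, a range that includes the controls), 27.4 in cluster 1 and 81.5 in cluster 2. At day 1, 13 of the 20 were lower in limma-voom (34.6% of all genes were), Jund (-1.01), Jun (-0.88) and Fos (-0.53) among them, and only the chemokine genes Ccl3 (1.62) and Ccl4 (2.00) were higher (34.7% of all genes were). At day 7 the calls, 3 of 20 beside 3.98% of all genes, were Ccl3 (0.87) and Ccl4 (0.89), both higher, and Jun (-0.25).

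**Figure D4:**
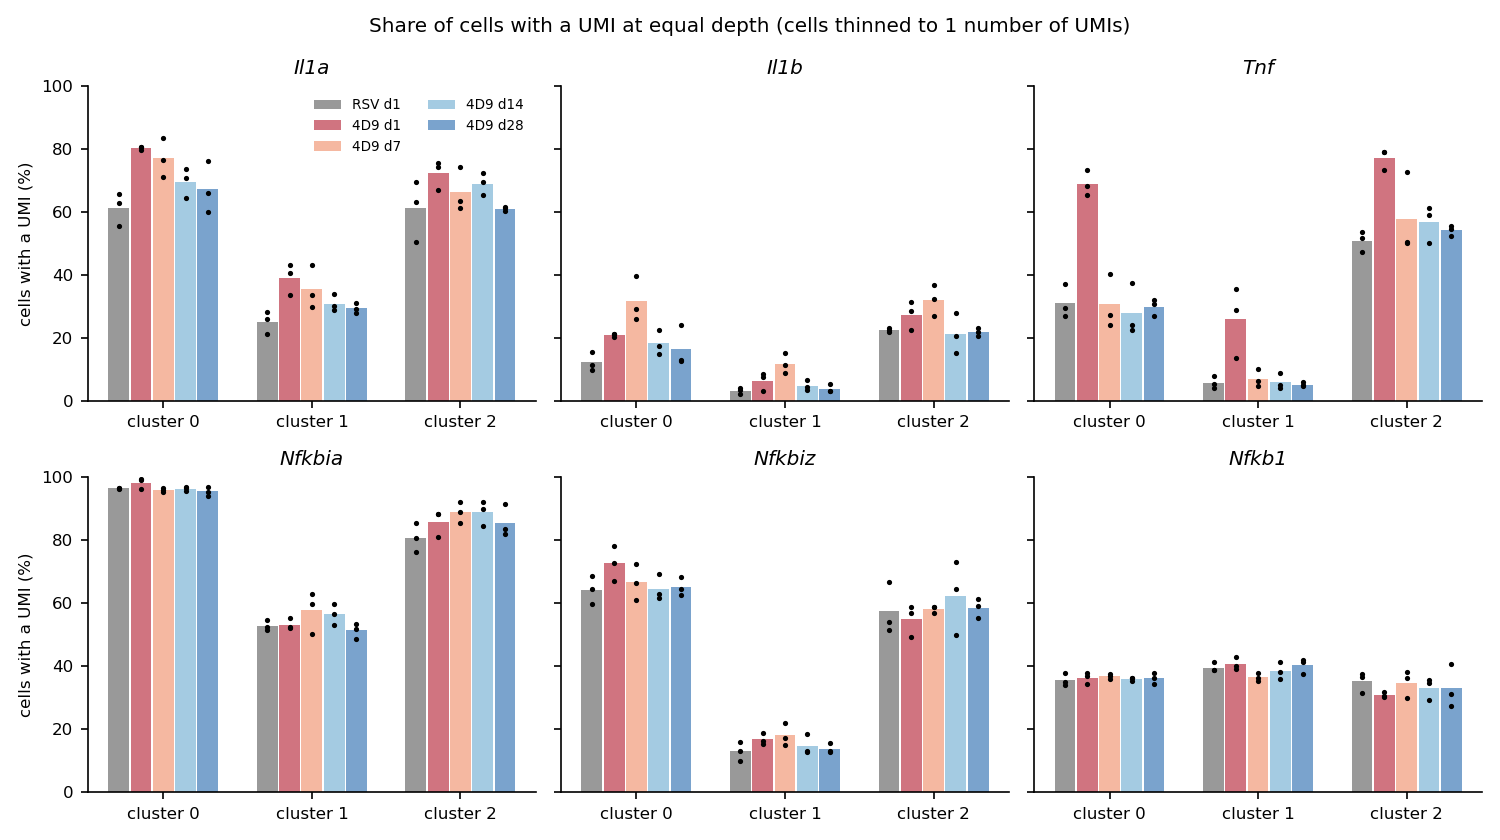
Percent of thinned cells with at least 1 UMI (vertical axes) for 6 of the genes (Il1a, Il1b, Tnf, Nfkbia, Nfkbiz and Nfkb1) by deposited cluster (0, 1 and 2) and group. Bars are means of 3 mice and points are mice. Cluster 1 lies lowest for Tnf (5.83% in ATV:RSV against 31.2% in cluster 0), and Il1b at day 7 lies above ATV:RSV in all 3 clusters.

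Within a cluster the mice were set side by side between groups, although cells had been placed in clusters by the same expression values, so that the few day 1 cells of clusters 0 and 1 are a selected set. Free RNA from the many cluster 2 cells of those libraries was not measured, and its part in these values was not tested. In cluster 0, Tnf was 149 to 221 CPM in ATV:RSV and 673 to 765 CPM at day 1 (1.97, SE 0.259, limma-voom adjusted p = 0.000219), and in cluster 1 it was 15.9 to 35.4 and 123 to 170 CPM (2.56, SE 0.305, adjusted p = 1.31e-05). These values rest on 211 to 383 and 180 to 555 cells per mouse at day 1, and the level in cluster 1 was far below the 1511 CPM of the whole day 1 sums. Il1a was called in both at day 1 too (1.03 and 0.92). Beside them 5.09% of all genes tested in cluster 0 (3.77% higher) and 9.18% in cluster 1 (6.36% higher) were called. The fitted call of Il1rn in cluster 0 (3.10) rested on 4 UMIs at day 1 against 9 in ATV:RSV, and the gene passed the filter there only through the day 1 mice, so that nothing is read from it.

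For Il1b the day 1 differences in these clusters were about the size of those of Il1a but did not pass the threshold. Both sides of the threshold turned on 1 mouse: Il1b in cluster 0 passed in 1 of 16 alternatives (without day 28 replicate 1, limma-voom adjusted p = 0.0390), and Il1a in cluster 1 lost its call in 1 of 16 (without day 1 replicate 1, adjusted p = 0.105). In cluster 0 it was 91.6 to 164 CPM in ATV:RSV and 220 to 280 CPM at day 1, without overlap (1.05, SE 0.380, limma-voom adjusted p = 0.131). In cluster 1 it was 11.4 to 29.8 and 33.4 to 46.1 CPM, again without overlap (0.91, SE 0.516, adjusted p = 0.329). At day 7 it rose in both, to 305 to 517 CPM in cluster 0 (1.80, SE 0.272, adjusted p = 0.000568) and to 72.0 to 115 CPM in cluster 1 (2.16, SE 0.298, adjusted p = 6.01e-05). Il1a (0.80 and 0.86) and Relb (0.23 and 0.40) were called in both clusters at day 7 as well, beside 4.28% and 5.76% of all genes (3.08% and 4.12% higher). The call of Relb was lost in 13 of 16 alternatives in cluster 0 and in 3 of 16 in cluster 1, and that of Il1a in cluster 0 in 4 of 16 (limma-voom adjusted p up to 0.0872). In cluster 1 Tnfaip3 (0.48) was called too, a call lost in 1 of 16 alternatives. Ptgs2 had 131 UMIs there at day 7 against 13 in ATV:RSV, but it passed the filter on low counts only through the day 7 mice, so its fitted call (3.53) is no more than a description. None of the members tested was called in either cluster at day 14 or 28 in limma-voom, beside 0.113% and 1.18% of all genes at day 14 and 0% at day 28. At an unadjusted p under 0.05 there were 5 of the 10 in cluster 0 at day 14 and 3 at day 28, beside 5.54% and 4.23% of all genes. In cluster 1 there were 4 and 1 of the 9 tested, beside 6.96% and 5%.

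With at least 50 cells per mouse cluster 2 could be fitted too, on 76 to 165 ATV:RSV cells per mouse. At day 1 Tnf (1.26, limma-voom adjusted p = 2.7e-05) and Il1a (0.64, adjusted p = 0.000736) were higher there, beside 36.8% of all genes (17.5% higher), and Il1b was not called (0.22, adjusted p = 0.555). Within cluster 2 its level was 253 to 325 CPM in ATV:RSV and 263 to 398 CPM at day 1. At day 7 it was 438 to 477 CPM and not called (0.71, limma-voom adjusted p = 0.456), beside 0.693% of all genes.

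The wider circuit was described by a list of 89 other genes, of which 81 were tested. At day 1, 62 of the 81 were called, 36 higher and 26 lower, which is 76.5% beside 69.2% of all genes, and the median log2 fold change was 0.01. The 81 include 3 genes that passed the filter on low counts through 1 group only, Tnip3 and Il23a through day 1 and Il1r2 through day 7. These 3 stay in the counts, but nothing is read from their own fits. Genes are given below by role, as examples chosen after their values were seen. The 4 other genes of the IkB family were higher, Bcl3 (1.33), Nfkbid (0.76), Nfkbib (0.70) and Nfkbie (0.29), as was Nkrf (0.37), a DNA-binding repressor listed with them that is not an IkB protein. The value of Nfkbie was little more than the shift that library size alone gave the median of all genes. The 14 genes listed as adaptors act between receptors and the IKK kinases and need not all promote the signal. Of these, 9 were lower, such as Traf5 (-0.81), Tab2 (-0.73) and Tab1 (-0.68), and 1 was higher, Traf2 (0.44). Of all genes, 34.6% were lower and 34.7% higher.

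Of the other subunit genes, Nfkb2 was higher (0.47), whereas Rela (-0.38) and Rel (-0.49) were lower. The values of this list, the adaptors included, are relative to the total UMIs of a mouse, which were higher at day 1 than in ATV:RSV. In UMIs, Rela had 7778 in the 3 ATV:RSV mice and 7765 in the 3 day 1 mice, and Rel 16976 and 15598. These UMIs came from 6487 to 7020 cells per ATV:RSV mouse and 5998 to 7343 cells per day 1 mouse. Whether the genes called lower also fell per cell was not tested. Among the kinases, Chuk, Ikbkb and Ikbkg, which form the classical IKK complex, were lower by -0.32, -0.36 and -0.34, as was Map3k14 (-0.60), the kinase of the alternative pathway, and Ikbke, an IKK-related kinase of the interferon response, was higher (2.98). The TNF receptor genes Tnfrsf1b (-0.80) and Tnfrsf1a (-0.30) were lower, and Sigirr, which dampens interleukin-1 receptor signalling, was higher (1.18). In their class, receptors and decoys of interleukin-1 and TNF, 2 genes were called higher and 2 lower of 6 tested. Of all genes tested, 34.7% were higher and 34.6% lower at that day. Feedback inhibitors lay near that share, with 5 higher (35.7%) and 4 lower of 14. These 5 include Tnip3, which likewise passed the filter on low counts only through the day 1 mice. Of 14 survival and costimulatory targets 9 were higher (64.3%) and 1 was lower, and of 10 other cytokines 8 were higher (80.0%) and 1 was lower. These 8 include Il23a, which passed the filter on low counts only through the day 1 mice, so this share is no more than a description. Among 9 prostaglandin genes 4 were higher (44.4%) and 3 lower.

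Among the called genes of this list, 5 had the highest log2 fold changes. Il12b, the shared subunit of interleukin-12 and interleukin-23, went from 0.675, 0.289 and 0.0954 CPM in ATV:RSV to 15.3, 22.7 and 20.7 CPM at day 1 (6.05, SE 0.720, limma-voom adjusted p = 1.73e-06). Cd40, a costimulatory receptor, went from 0.716, 0.265 and 0.406 CPM to 15.1, 20.8 and 20.1 CPM (5.37, SE 0.356). Tnip3, which binds the Tnfaip3 protein, had 12 UMIs in the 3 controls and 508 at day 1. It passed the filter on low counts only through the day 1 mice, so its fitted value (5.11, SE 0.601) is no more than a description. Tnfsf9, the ligand of the costimulatory receptor 4-1BB, rose from 8.74 to 131 CPM on average (3.91, SE 0.197), and Nlrc5, an activator of class I antigen presentation genes that has also been described as an NF-kB inhibitor, from 1.04 to 8.20 CPM (3.01, SE 0.207). Il6 was 12.6, 13.003 and 15.4 CPM in ATV:RSV and 9.88, 9.08 and 16.8 CPM at day 1, and was not called (-0.28); it was named after its values were seen.

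The 5 lowest were Ltb, which encodes a subunit of membrane lymphotoxin (-1.55), the prostaglandin E receptor genes Ptger3 (-1.43) and Ptger1 (-1.28), the prostaglandin D synthase gene Hpgds (-1.10) and Itch, a ubiquitin ligase that works with the Tnfaip3 protein (-0.85). Hpgds was 509, 527 and 511 CPM in ATV:RSV and 251, 242 and 230 CPM at day 1. Ltb was 16.9, 17.9 and 15.4 CPM and 6.38, 4.85 and 6.01 CPM. In each of the 5 the groups did not overlap, beside 71.5% of all genes tested. The 5 were picked by the size of this same difference, so this adds no support.

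At day 7, 10 of the 81 were called, all higher, which is 12.3% beside 3.98% of all genes. Without ATV:RSV replicate 2 or day 7 replicate 3 the count was 5, and without ATV:RSV replicate 3 it was 6. Of 25 alternatives, Birc3 lost its call in 7, Gadd45b and Ebi3 in 5 each, Cd83 in 4 and Nlrc5 in 3. The 10 were Tnip1 (0.37), a partner of the Tnfaip3 protein, Nlrc5 (1.19), the antiapoptotic genes Birc3 (0.30), Bcl2a1a (0.91), Bcl2a1b (0.49) and Bcl2a1d (1.36), the activation marker Cd83 (0.75), the stress gene Gadd45b (0.82), and the cytokine genes Ebi3 (0.30) and Csf1 (0.67). The Bcl2a1 genes are near-identical copies whose reads may have been shared out between them, so their separate values are uncertain. Cd83 was 568, 463 and 441 CPM in ATV:RSV, 504, 650 and 698 CPM at day 1 and 655, 958 and 873 CPM at day 7, and Birc3 was 40.6, 37.2 and 35.8 CPM, 33.5, 38.4 and 40.4 CPM, and 45.2, 50.1 and 45.1 CPM. Both were called at day 7 and not at day 1 (0.32 and -0.02). At days 14 and 28, 0 of the 81 were called in limma-voom (10 and 6 had an unadjusted p under 0.05, beside 5.4% and 4% of all genes). DESeq2 called 3 at day 14, beside 0.926% of all genes.

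**Figure D5:**
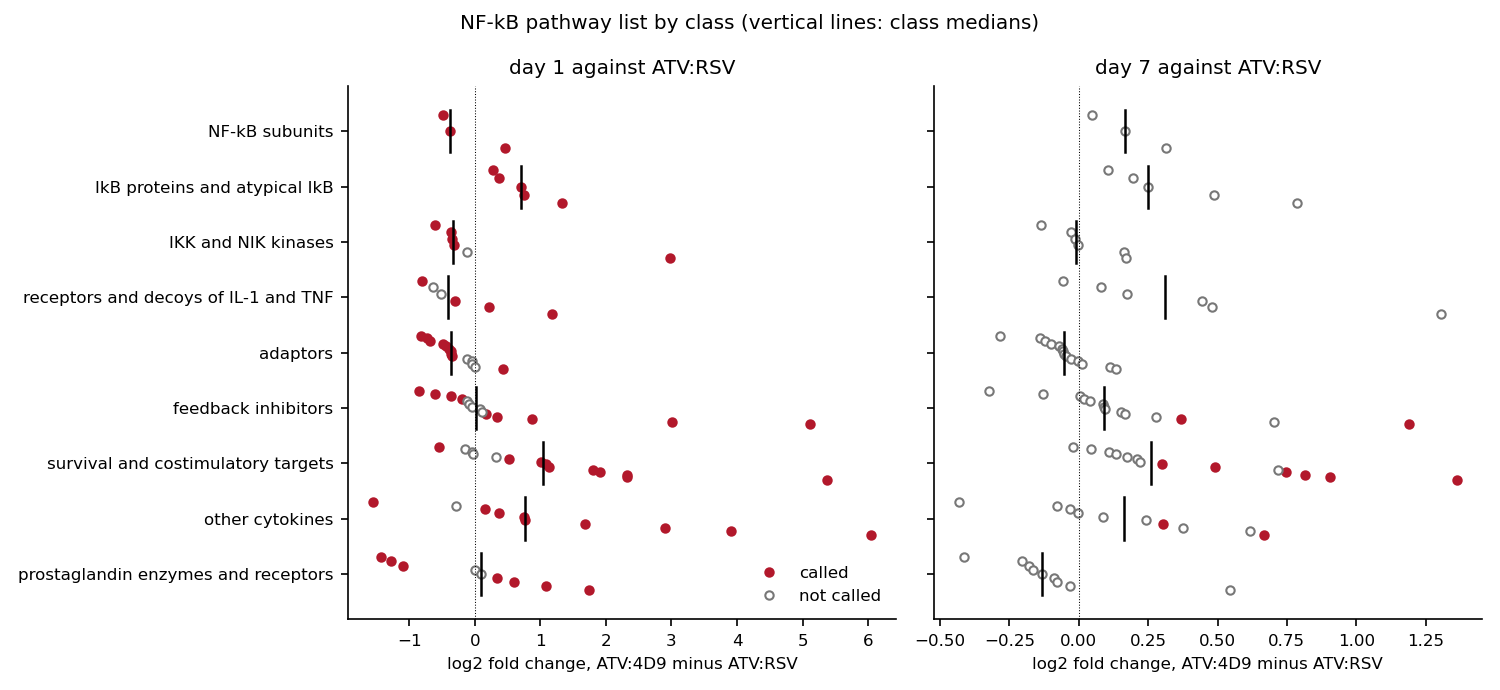
Log2 fold change against ATV:RSV (horizontal axes, each panel with its own scale) of the 81 tested genes of the wider circuit at day 1 and day 7, by class on the vertical axis; each point is a gene, filled where called, and vertical lines are class medians. At day 1 the 5 genes of the IkB row, which also holds the repressor Nkrf, lie above 0 and 9 of 14 adaptors are called lower, and at day 7 all 10 called genes are higher.

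The genes whose group means ran most like those of 3 members were sought among 7533 candidates, by the root mean square difference of log2 CPM over the 5 groups after centring each gene. For Il1b they were the MHC class I genes H2-Q7 (0.198) and H2-Q6 (0.264), whose near-identical sequences make their counts uncertain, and Arl5c (0.215). For Tnf they were Capg (0.0969), Psmc3ip (0.128) and Cpd (0.144), and for Nfkbia they were Ascc3 (0.0129), Them6 (0.0182) and Osbpl1a (0.0199). The measure rests on 5 group means and is not scaled to a gene's own range. The centred means ran from -0.12 to 0.29 for Nfkbia and from -0.83 to 2.76 for Tnf. Values of the measure are therefore not comparable between the 3 members.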

How the data were processed

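Microglia of 15 mice were profiled with 10x 3' v3 single-cell RNA-seq. The authors deposited raw UMI counts for each gene in each cell with a table of cells that gives each cell's mouse, cluster and mitochondrial percent, and the deposited cells all had at least 500 genes and at most 10.0 percent mitochondrial UMIs. The submitters' processing notes name Cell Ranger 4.0.0 and mm10. The filters on cells and the treatment of doublets are not given in the labels, and no doublet caller was run here. 

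UMI counts were summed per mouse and fitted over all 5 groups with limma-voom (limma 3.58.1, R 4.3.3) after TMM scaling and the filterByExpr rule of edgeR 4.0.16, with Benjamini-Hochberg adjustment over 14260 genes. The same fit was made within clusters with at least 100 cells per mouse. edgeR's quasi-likelihood test, DESeq2 1.42.0, other scalings, filters, cells and left-out mice were alternatives, and the scripts were tested on simulated data. Each replicate number marks a batch with 1 mouse of each group, so the numbers pair the mice, and the mean correlation of deviations was 0.0358 within batches and -0.0176 between them. No pair of replicates agreed within sampling noise (chi-square per degree of freedom 10.6 to 28.7 over 15 pairs).

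The 10 genes and the gene lists were chosen with earlier results of these data known. Besides the 10, the genes named by rule were the 5 highest and 5 lowest of the wider list called at day 1, those called at later days, and the 3 most like Il1b, Tnf and Nfkbia. Intervals between mice cover these 3 animals per group. The sum of UMIs per mouse limits precision for Il1rn and Ptgs2 most.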

Additional observations from a re-analysis of the deposited data

Results flagged for a closer look

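For 7 of the 10 genes the change against ATV:RSV at day 7 differed from that at day 1, by the direct limma-voom contrast of the 3 day 7 and the 3 day 1 mice, in which the shared controls cancel. The difference was -4.11 on the log2 scale for Il1rn, -3.33 for Tnf, -0.60 for Il1a, -0.39 for Nfkbia, -0.35 for Nfkbiz, -0.29 for Relb and 0.19 for Nfkb1. In that contrast 66.9% of all genes tested were called, and the share of all calls that were higher at day 7 was 49.3% (59.8% with library size alone). The smaller values rested on fewer settings: Nfkbiz lost its call in 6 of 25 alternatives and Nfkb1 in 4, and without day 7 replicate 1 only 4 of the 7 were called, beside 62.7% of all genes. Day 1 cells were also deeper than day 7 cells, and with all cells thinned to 1 depth 5 of the 10 genes were called, likewise beside 62.7% of all genes.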

How the results depend on the processing

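The day 1 calls of Il1a, Il1b, Il1rn, Tnf, Relb and Ptgs2 and the day 7 call of Il1b kept their direction and stayed past the threshold in 25 of 25 alternatives. At day 7 the members called were 5 with DESeq2, 5 with the replicate block and 5 with thinned cells instead of 3, and 1 to 5 when single mice were left out (5 without day 1 replicate 1, 2 without day 7 replicate 1). Day 7 against day 1 gave 4 to 7. Of the wider list, leaving out mice gave 5 to 13 at day 7, with 5 without ATV:RSV replicate 2 or day 7 replicate 3 and 6 without ATV:RSV replicate 3. At day 14 it gave 0 to 1, and DESeq2 called 3, the replicate block 2 (beside 0.856% of all genes) and no filter 1. The block changed no other count of calls of these lists by over 1.5 times. Over all genes, 568 calls at day 7 became 1199 with library size alone, 1014 with the block and 871 with DESeq2, and 57 at day 14 became 122 with the block, 132 with DESeq2, 19 with library size alone, 27 with thinned cells and 0 with the 2 groups only. With single mice left out, the 568 fell to 331 (ATV:RSV replicate 2 omitted) and 334 (day 7 replicate 3 omitted), and the 57 to 16 (ATV:RSV replicate 3 omitted), 0 or 30 (replicate 1 or 2 of day 14 omitted). Within clusters 0 and 1 the member calls, counted once per gene, cluster and day, were 13, and 10 to 15 with mice left out. A gene can thus count more than once. Beside them, 0% to 9.18% of all genes tested were called, depending on cluster and day. Without Il1rn in cluster 0 and Ptgs2 in cluster 1, which passed the filter through 1 group only, these calls were 11, and 8 to 13.

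The sign turned only in differences that were called neither in the fit reported nor in the alternatives that turned them, and the cause was not tested. Of those differences, 2 were called under library size alone, with their sign kept: Nfkb1 at day 1 (-0.29) and Tnfaip3 at day 7 against day 1 (0.19). Il1b at day 7 against day 1 was 0.019 with library size alone and 0.032 thinned. Tnf at day 28 was -0.011 thinned and Nfkb1 at day 14 was -0.019 with library size alone. Nfkbia at day 7 was 0.00502 with DESeq2, 0.00553 with RLE scaling, 0.00191 without other cell types, 0.015 without the cells with most UMIs and 0.074 thinned. Leaving out mice gave -0.30 to 0.043 for Il1b at day 7 against day 1. For Tnf it gave -0.16 to 0.37 at day 7, -0.42 to 0.060 at day 14 and -0.13 to 0.21 at day 28. For Nfkbia it gave -0.020 to 0.025 at day 7 and -0.051 to 0.022 at day 28, for Nfkbiz -0.031 to 0.21 at day 14 and -0.068 to 0.17 at day 28, and for Tnfaip3 -0.077 to 0.10 at day 7 against day 1. For Nfkb1 it gave -0.10 to 0.0052 at day 1, -0.014 to 0.092 at day 14 and -0.0084 to 0.098 at day 28, and for Ptgs2 -0.18 to 0.50 at day 28.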
